A study of Mus musculus with 167 samples.

Results

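MicroRNA precursors were compared between the livers of 8 Q140 mice and 16 control mice at 2 months of age, 24 of the 167 small RNA libraries of the series. Libraries were chosen by their labels alone: genotype Het (Q140) Knock-In at 2 months, against Het (Q20) Knock-In (8 livers) and Wild Type (WT, 8 livers) of that age. Every mouse was of the C57BL/6 strain, and each group held 4 females and 4 males. A Q140 mouse keeps 1 endogenous *Htt* allele and carries 1 engineered allele in which exon 1 is of human *HTT* sequence with a CAG repeat of nominal length 140. A Q20 mouse has the same kind of allele with a nominal repeat of 20, in the normal range, and WT mice have none. The engineered allele is expressed from the *Htt* locus itself, so it acts in every cell that uses *Htt* and not in liver cells alone. The labels add that Q140 mice were housed with Q140 mice, and that Q20 and WT mice were both housed with Q20 mice, so genotype and housing cannot be told apart. Per the study, Q140 and Q20 are separate knock-in lines, and the WT mice are littermates of the Q20 line. Repeat length thus cannot be told apart from line either. The comparison asks which hepatic microRNAs differ in young mice with this long allele.

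A microRNA is cut from a hairpin precursor and loaded into an Argonaute protein, where its seed, bases 2 to 8 of the mature strand, does most of the pairing with target messenger RNAs. Precursors that lie close together are often cut from 1 primary transcript. *Mir144* and *Mir451a* form such a pair, made in developing red blood cells under the transcription factor GATA1, and *Mir451a* is matured by AGO2 without Dicer. *Mir183*, *Mir96* and *Mir182* form another cluster, best known from sensory cells and, in liver, as a target of the sterol regulator SREBP-2. In whole liver such a microRNA can come from hepatocytes or from blood, vessel and stromal cells.

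Of the 316 precursors tested, 4 differed between Q140 and controls at an adjusted p under 0.05, which is 1.27% of those tested. *Mir144* and *Mir451a* were higher in Q140 (0.633% of those tested) and *Mir182* and *Mir30b* were lower (0.633%). Mature strands of *Mir144*, *Mir451a*, *Mir182* and related precursors are shown first, since the results group them by cluster and by seed. *Mir30b* is named only, with strands of its relatives shown. They were taken from RefSeq on GRCm38.p6, with the seed in capitals. Counts were made per precursor, so the share of each arm is not known. Of the 40 precursors named by the rule given in the methods, 29 had a mature sequence in RefSeq's table.
mmu-miR-144-5p: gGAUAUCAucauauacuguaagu
mmu-miR-144-3p: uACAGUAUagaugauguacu
mmu-miR-451a: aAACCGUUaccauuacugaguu
mmu-miR-182-5p: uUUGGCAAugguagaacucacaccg
mmu-miR-96-5p: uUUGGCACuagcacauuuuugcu
mmu-miR-183-5p: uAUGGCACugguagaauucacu
mmu-miR-30a-5p: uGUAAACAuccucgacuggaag
mmu-miR-30c-5p: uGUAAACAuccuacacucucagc
mmu-miR-30e-5p: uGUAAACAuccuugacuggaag
mmu-miR-802-5p: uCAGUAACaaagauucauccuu
mmu-miR-103-3p: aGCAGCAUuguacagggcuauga
The miR-30 strands shown share the seed GUAAACA, whereas each member of the *Mir183* cluster has its own seed, and neither arm of miR-144 shares a seed with miR-451a.

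The total count was 2.82 ± 0.592 M counts in Q140 (SD, n = 8, M being the metric prefix mega), 3.57 ± 0.388 M in Q20 (SD, n = 8) and 3.30 ± 0.847 M in WT (SD, n = 8), and ranged from 1.69 to 4.62 M. Levels are given as CPM, estimated counts divided by that total in M counts. The liver microRNA *Mir122* stood at 24304 CPM on average in Q140 and 24563 CPM in controls, so the labelled tissue was borne out. The median Pearson correlation of a library with the others lay between 0.972 and 0.984, and 2 precursors that differ by sex, *Mir592* and *Mir1948*, matched the labelled sex in all 24 libraries. Among 84 pairs of libraries of 1 group, the smallest chi-square per degree of freedom was 45.1, so no library was a copy of another of its group. Pairs across groups were not examined.

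Sequencing lane is the limit on this comparison. Q140 livers were in lanes 1 (2), 3 (1) and 5 (5), and controls in lanes 3 (3), 4 (10) and 5 (3). Lane 1 therefore held no control and lane 4 no Q140 liver, and the lane-adjusted differences rest on 6 Q140 and 6 control livers in lanes 3 and 5. The controls of lane 5 were all Q20. Among the controls, lane alone moved 6 of 316 precursors at an adjusted p under 0.05 (1.9%) and 22 at an unadjusted p under 0.05 (6.96%). None of the 6 was called between Q140 and controls. *Mir144*, which was called, had an unadjusted p of 0.0462 for lane (adjusted p = 0.664, edgeR). Its control livers spanned 208 to 246 CPM in lane 3, 198 to 453 CPM in lane 4 and 119 to 258 CPM in lane 5. Without a lane term, *Mir451a* alone of the 4 calls was kept (log2 difference 0.44 ± 0.11, SE, adjusted p = 0.0348, edgeR).

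**Figure D1:**
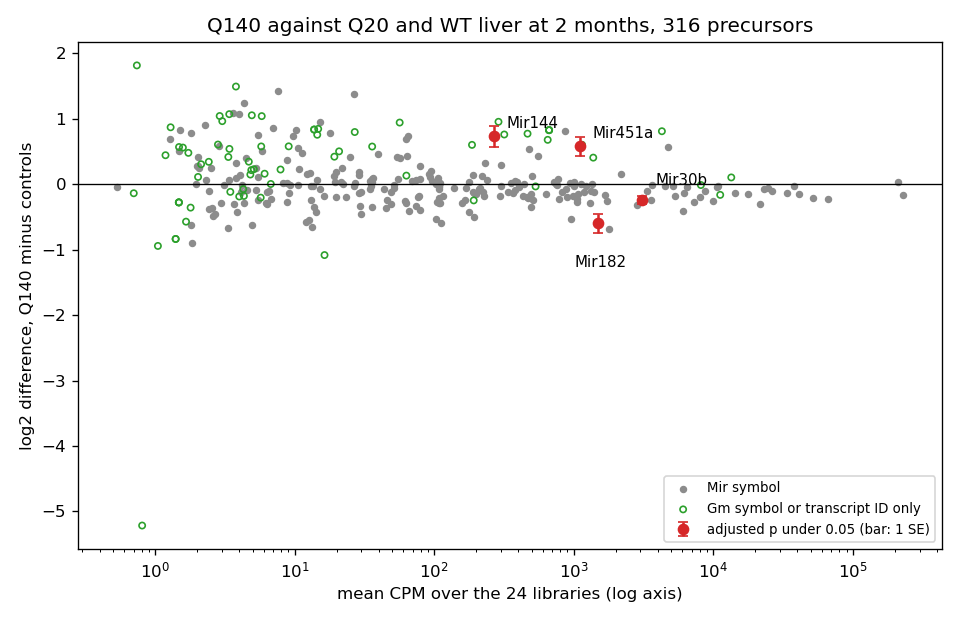
Log2 difference between Q140 and control livers at 2 months (y axis, adjusted for sex and lane) against mean CPM (x axis, log scale) for 316 precursors. Red points with bars of 1 SE are the 4 precursors at an adjusted p under 0.05, and green circles are the 69 precursors without a Mir symbol, of which 49 lie above 0.

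At an unadjusted p under 0.05, 65 precursors differed (20.6%), 30 of them higher and 35 lower in Q140. Over all precursors tested, 144 were higher and 172 lower, with a median log2 difference of -0.03. That split turned with the scaling, to 189 higher and 127 lower (median 0.07) with total count alone and 177 higher and 139 lower with limma on log2(FPKM + 1). In 0 of 316 precursors (0%) did the range of the Q140 livers lie clear of the range of the controls. The differences described here are thus shifts of overlapping distributions.

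The higher of the called precursors were the pair made in red blood cells. *Mir144* ranged from 170 to 484 CPM in Q140 (median 302), from 119 to 293 CPM in Q20 (median 224) and from 208 to 453 CPM in WT (median 240). The groups overlapped, and 6 of 8 Q140 livers lay above the control median. The mean was 327 ± 110 CPM over the 8 Q140 livers and 240 ± 72.3 CPM over the 16 controls (± SD). The log2 difference adjusted for sex and lane was 0.73 ± 0.16 (SE, adjusted p = 0.0459, edgeR quasi-likelihood test).

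*Mir451a*, the partner of *Mir144*, ranged from 939 to 1859 CPM in Q140 (median 1360), from 695 to 1168 CPM in Q20 (median 940) and from 770 to 1655 CPM in WT (median 953). It is the more separated of the pair: 7 of 8 Q140 livers lay above the control median, and only 1 control, a WT male, exceeded 1168 CPM. The log2 difference was 0.58 ± 0.14 (SE, adjusted p = 0.0459, edgeR). The precursors lie 100 bases apart on the plus strand of chromosome 11 in mm10 (*Mir144* at chr11:78073005-78073070, *Mir451a* at chr11:78073170-78073241), outside annotated genes.

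*Mir486*, an erythroid and muscle microRNA within an intron of the red cell ankyrin gene *Ank1* on chromosome 8, ranged from 4656 to 8087 CPM in Q140, from 3550 to 5673 CPM in Q20 and from 1612 to 4592 CPM in WT. All 8 Q140 livers lay above the control median and above every WT liver, while 3 Q20 livers lay within the Q140 range. Its log2 difference of 0.57 ± 0.24 (SE) did not pass the threshold with lane in the fit (adjusted p = 0.194, edgeR), and without the lane term it did (0.64 ± 0.16, adjusted p = 0.0348).

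All 3 erythroid precursors tested were therefore higher, 2 at the threshold, with a median log2 difference of 0.58 against -0.03 over all precursors. Their summed level was 6004 to 10198 CPM in Q140 (median 7830), 4364 to 7086 CPM in Q20 (median 5430) and 3010 to 5755 CPM in WT (median 4953). The 3 members stayed higher under every scaling, control group and lane setting tried. In whole tissue, more cells of a type and more RNA per cell cannot be told apart, and how much blood each liver held was not tested.

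Within lane 5 alone, the largest lane with both groups, *Mir144* was 0.54 ± 0.19 and *Mir451a* 0.45 ± 0.16 higher on the log2 scale (SE, 5 Q140 against 3 Q20 livers). The 5 Q140 livers ranged from 939 to 1448 CPM for *Mir451a* and the 3 Q20 livers of that lane from 695 to 937 CPM, so that their ranges all but met. The pair of Q140 livers in lane 1, which have no control in their lane, stood at 1304 and 1859 CPM.

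**Figure D2:**
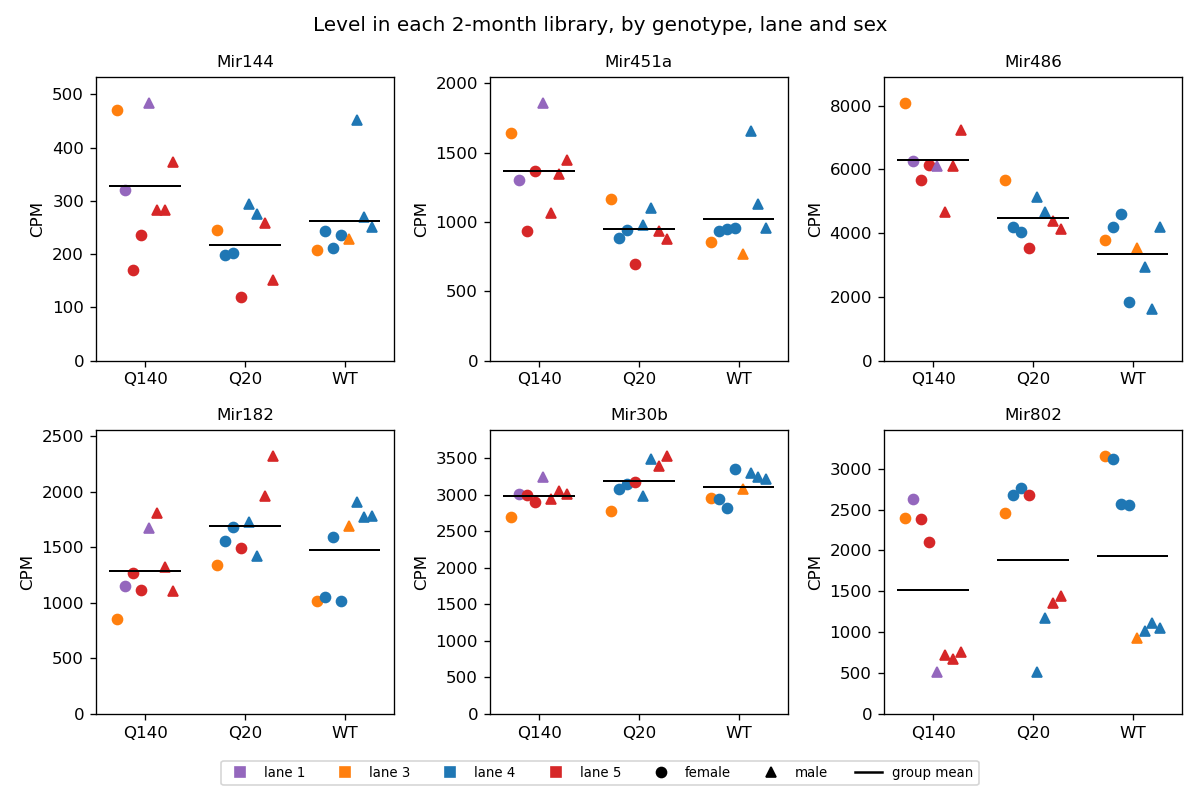
CPM (y axes, from 0) of 6 precursors in each of the 24 libraries, by genotype (x axis), lane (colour) and sex (circle or triangle), with horizontal lines at group means. Every group overlaps the others in *Mir144*, *Mir182* and *Mir30b*, *Mir486* is above every WT liver in all 8 Q140 livers, and *Mir802* falls into separate ranges by sex.

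The precursor with the larger decrease among those called was *Mir182*. It ranged from 854 to 1807 CPM in Q140 (median 1209), from 1340 to 2319 CPM in Q20 (median 1617) and from 1012 to 1906 CPM in WT (median 1645). The groups overlapped widely, 6 of 8 Q140 livers were below the control median, and 3 WT females were below the Q140 median. It fell by 0.60 ± 0.15 on the log2 scale (SE, adjusted p = 0.0459, edgeR), with means of 1583 ± 359 CPM over the 16 controls and 1286 ± 314 CPM over the 8 Q140 livers (± SD). Within lane 5 the value was -0.63 ± 0.18 (SE).

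The difference in *Mir182* varied with the controls and with the lane term. With all controls and no lane term it was -0.35 ± 0.11 (SE). Against Q20 alone it was -0.61 ± 0.14 with the lane term, and against WT alone -0.17 ± 0.12 without it (adjusted p = 0.512, edgeR). WT and Q140 livers shared lane 3 alone, with 2 WT livers and 1 Q140 liver. The fit against WT with the lane term, which rests on those 3, gave -0.37 ± 0.30 for *Mir182*, 1.14 ± 0.31 for *Mir451a* and 1.36 ± 0.32 for *Mir144* (SE), and called 0 precursors (26 at an unadjusted p under 0.05).

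*Mir183* and *Mir96* lie 3676 and 3454 bases from *Mir182* on the minus strand of chromosome 6 (*Mir182* at chr6:30165918-30165992 in mm10) and had the same direction, though neither passed the threshold. *Mir183* ranged from 55.4 to 89.1 CPM in Q140 (median 64.0), with 7 of 8 livers below the control median, and its log2 difference was -0.40 ± 0.15 (SE, adjusted p = 0.129, edgeR). *Mir96* was near the detection limit, at 1.41 to 9.28 CPM in Q140, and its value of -0.62 ± 0.38 was less certain (SE, adjusted p = 0.341, edgeR). All 3 members were lower under each of the settings tried, with a median of -0.60 in the reported fit. The median was -0.35 with all controls and no lane term, and -0.17 against WT alone, also without that term.

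*Mir30b* had the smallest difference of those called. It ranged from 2699 to 3240 CPM in Q140 (median 3005), from 2773 to 3528 CPM in Q20 (median 3161) and from 2815 to 3349 CPM in WT (median 3148). These ranges overlapped over most of their length, but 7 of 8 Q140 livers were below the control median. It fell by 0.24 ± 0.06 on the log2 scale (SE, adjusted p = 0.0459, edgeR). In lane 5 the 5 Q140 livers spanned 2895 to 3045 CPM and the 3 Q20 livers 3175 to 3528 CPM, without overlap. The share of all precursors separated in that lane was not counted. *Mir486*, which was not called, was separated there as well (4656 to 7230 CPM in Q140, 3550 to 4378 CPM in Q20). The difference against WT alone, without a lane term, was -0.05 ± 0.05 (SE). Its counts were fractional in 23 of 24 libraries, as when reads are divided between similar precursors, so its separate level is uncertain.

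The miR-30 family did not move as a block. *Mir30d*, 3698 bases from *Mir30b* on chromosome 15, differed by -0.03 ± 0.07 (SE, adjusted p = 0.846, edgeR) and ranged from 9477 to 11460 CPM in Q140 and from 8546 to 12161 CPM in Q20. *Mir30a*, whose 5p strand carries the seed GUAAACA, had a log2 difference of -0.22 ± 0.06 and just missed the threshold (SE, adjusted p = 0.0641). The other members with that seed, named after their values were seen, were at -0.26 ± 0.09 for *Mir30c-2*, 0.12 ± 0.13 for *Mir30c-1* and -0.04 ± 0.10 for *Mir30e* (SE). *Mir30c-1* and *Mir30c-2* make the same 5p strand, so their split is uncertain, and whether the members differ from each other was not tested.

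**Figure D3:**
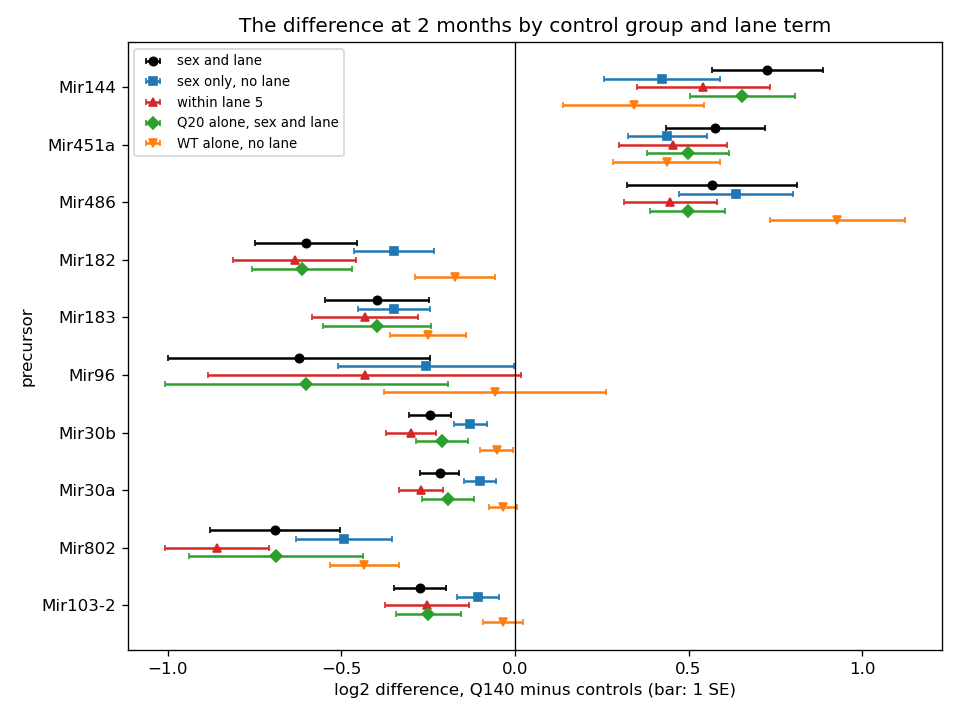
Log2 difference between Q140 and control livers (x axis, bars of 1 SE) for 10 precursors (y axis) under 5 choices of controls and lane term. The erythroid precursors lie above 0 under all 5. *Mir182*, *Mir30b*, *Mir30a* and *Mir103-2* lie closer to 0 against WT alone, without the lane term, than in the fit with sex and lane.

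Among precursors typical of hepatocytes, *Mir802* had the largest difference. *Mir802* is made in liver and pancreatic islets and is known for its rise in obesity. Its level depended on sex first, and so it is given by sex. In males it was 506, 669, 720 and 754 CPM in Q140 against 509, 1170, 1362 and 1440 CPM in Q20 and 923 to 1109 CPM in WT. In females it was 2106 to 2635 CPM in Q140, 2458 to 2760 CPM in Q20 and 2553 to 3155 CPM in WT. All Q140 males were thus below every control male but 1.

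Adjusted for sex and lane, the log2 difference in *Mir802* was -0.69 ± 0.19 (SE), which did not pass the threshold (adjusted p = 0.0681, edgeR). Within lane 5 it was -0.86 ± 0.15 and did (adjusted p = 0.0232). The difference in males minus that in females was -0.56 ± 0.25 (SE, adjusted p = 0.526, edgeR), so a dependence on sex was not shown.

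Of 8 hepatocyte precursors, 3 passed an unadjusted p of 0.05, against 20.6% of all precursors, and 0 the adjusted threshold. All 8 were lower in Q140, with a median of -0.18, where 172 of 316 were lower over all precursors. That direction was not stable, since 3 of 8 were higher when scaled by total count alone. *Mir192*, which took the largest share of counts of all precursors, ranged from 196398 to 247053 CPM in Q140 and from 207837 to 252424 CPM in controls, with a log2 difference of -0.17 ± 0.05 (SE, adjusted p = 0.0763, edgeR). *Mir122*, the defining hepatocyte microRNA, differed by -0.05 (unadjusted p = 0.476, edgeR).

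Next in order among lower precursors were several microRNAs that did not pass the adjusted threshold in the reported fit. *Mir26a-2*, in the phosphatase gene *Ctdsp2*, was below the control median in 8 of 8 Q140 livers, at 36425 to 41512 CPM against 36557 to 42790 CPM in Q20 and 39491 to 45734 CPM in WT. Its log2 difference was -0.15 ± 0.05 (SE, adjusted p = 0.0763, edgeR), and without the lane term -0.15 ± 0.03 (adjusted p = 0.0175). *Mir101a*, known to target the Polycomb enzyme EZH2, was likewise below the control median in 8 of 8, at 4419 to 6062 CPM against 5087 to 8420 CPM in Q20 and 5547 to 6962 CPM in WT. Its log2 difference was -0.41 ± 0.13 (SE).

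*Mir103-2*, in an intron of the pantothenate kinase gene *Pank2* and linked to insulin sensitivity, was at -0.27 ± 0.07 (SE, adjusted p = 0.0681, edgeR), with 7 of 8 Q140 livers below the control median. The scarce *Mir190a*, at 6.6 to 15.7 CPM in Q140 and 9.59 to 18.6 CPM in controls, was at -0.66 ± 0.19 and *Mirlet7d* at -0.17 ± 0.06 (SE). *Mir26a-2*, *Mir101a*, *Mir103-2* and *Mirlet7d* each had fractional counts in 22 or more of 24 libraries. None of these precursors passed the adjusted threshold in the reported fit.

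The higher precursors next in order were of another kind. *Gm23935*, *Gm24245* and *Gm24270*, annotated on chromosomes 16, 4 and 9, had identical counts in every library and so stand for 1 measurement. They ranged from 303 to 1513 CPM in Q140 (median 821) and from 316 to 956 CPM in controls, with 7 of 8 Q140 livers above the control median. The log2 difference was 0.82 ± 0.24 (SE, adjusted p = 0.0763, edgeR).

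*Gm23766* was at 0.60 ± 0.18 (SE) and the transcript ENSMUST00000102093, which the annotation used here did not match, at 0.95 ± 0.31 (SE). *Mir717*, in an intron of *Gpc3* on chromosome X, was at 1.37 ± 0.44 and *Mir1961* at 1.25 ± 0.39 (SE). *Mir1961* was above the control median in 8 of 8 Q140 livers but was scarce, at 3.48 to 10.4 CPM in Q140 and 1.07 to 7.88 CPM in controls. All had adjusted p-values of 0.0763 (edgeR).

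*Mir128-1*, a microRNA of neurons in an intron of *R3hdm1*, ranged from 45.2 to 96.8 CPM in Q140, from 41.5 to 71.9 CPM in Q20 and from 38.7 to 67.3 CPM in WT. Its log2 difference was 0.40 ± 0.12 (SE, adjusted p = 0.0763, edgeR), with 7 of 8 Q140 livers above the control median. *Mir128-1* was also 1 of the 6 precursors that differed by lane among controls (adjusted p = 0.0294, edgeR), at 57.3 to 71.9 CPM in lane 3, 38.7 to 53.6 CPM in lane 4 and 44.0 to 54.6 CPM in lane 5. Within lane 5 its difference was 0.35 ± 0.15 (SE). Of 7 precursors listed for their link to brain or Huntington's disease, 5 were higher and 2 lower, 1 of them at an unadjusted p under 0.05 (against 20.6% of all precursors), with a median of 0.36. *Mir132*, counted as lower at -0.03 ± 0.14 (SE), had 7 of 8 Q140 livers above the control median before adjustment. *Mir484* of that list was at 0.13 ± 0.10 (SE).

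The imprinted *Dlk1-Dio3* cluster on chromosome 12, expressed from the maternal chromosome and largely shut in adult liver, was higher in 11 of 11 precursors tested, with a median of 0.46. The rest of the 30 members found had too few counts to be tested. Of those tested, 2 of 11 passed an unadjusted p of 0.05, against 20.6% of all precursors, and 0 the adjusted threshold. Without the lane term 6 of 11 passed the unadjusted p, against 69 of 316 over all precursors. There 1 passed the adjusted threshold, *Mir410* (1.13 ± 0.25, SE, adjusted p = 0.0175, edgeR). *Mir376c*, with the smallest p, was at 1.08 ± 0.49 (SE) and at 1.95 to 8.07 CPM in Q140 against 0.332 to 5.91 CPM in controls. *Mir127*, with the most counts, was at 0.32 ± 0.28 (SE). The difference in males minus that in females was -1.37 ± 0.66 for *Mir376c* and -0.90 ± 0.37 for *Mir127* (SE, adjusted p = 0.526 for each, edgeR). A dependence on sex was thus not shown for either. Summed over the list, Q140 ranged from 227 to 844 CPM, wider than Q20 (329 to 550 CPM) and WT (216 to 517 CPM), and within lane 5 the split was 8 higher and 3 lower.

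Precursors of stromal cells went the other way. All 6 mesenchymal precursors were lower, with a median of -0.33. Of these, 3 passed an unadjusted p of 0.05, against 20.6% of all precursors, and 0 the adjusted threshold. *Mir145a*, a smooth muscle microRNA, was at -0.35 ± 0.13 and *Mir143*, its neighbour in the genome, at -0.31 ± 0.22 (SE). Their summed level nonetheless spanned 17072 to 47705 CPM in Q140 and 17577 to 42356 CPM in controls, with Q140 F2 (lane 1) and WT F3 (lane 4) at the top of their sets.

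The remaining lists showed smaller medians. The 8 epithelial precursors were all lower (median -0.23, *Mir31* at -0.24 ± 0.09 and *Mir203* at -0.10 ± 0.08), though within lane 5 4 were higher and 4 lower. *Mir31* had a mean of 521 CPM in Q140 and 499 CPM in controls, 4 Q140 livers on each side of the control median, and a sign that turned under the 2 settings without a lane term that used WT (up to 0.13). Of 10 let-7 precursors, 9 were lower (median -0.12, *Mirlet7f-2* at -0.15 ± 0.07). Of 10 in the miR-17-92 family, 7 were lower (median -0.03, *Mir363* at -0.62 ± 0.46 and *Mir92-1* at -0.13 ± 0.10), but 7 were higher with total count alone or limma, and *Mir92-1* was at 0.15 against WT alone without a lane term. Leukocyte precursors were split, 3 higher and 2 lower, with *Mir146* at 0.43 ± 0.26. The endothelial *Mir126a* was at -0.10 ± 0.06 and the muscle *Mir133a-1* at 0.94 ± 1.09 (SE in each case). None of these passed the adjusted threshold in the reported fit. Without the lane term *Mir126a* did (-0.17 ± 0.04, SE, adjusted p = 0.0348, edgeR).

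Of the 6 precursors with the largest share of counts, *Mir192*, *Mir30a* and *Mir26a-2* are described above. Each was lower without passing the adjusted threshold in the reported fit. *Mir22* was at 0.03 ± 0.07, *Mir148a* at -0.24 ± 0.12 and *Mir21a* at -0.02 ± 0.10 (SE). *Mir21a* ranged from 25103 to 53343 CPM in Q140 and from 22847 to 52231 CPM in controls, so its spread between livers exceeded any difference between groups.

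The 2-month differences were set beside those of other Q140 livers at 6 and 10 months, with controls of their own age. At 6 months, against Q20 alone, *Mir144* was at -0.21 ± 0.24, *Mir451a* at -0.02 ± 0.21, *Mir182* at 0.23 ± 0.19 and *Mir30b* at 0.15 ± 0.07 (SE). At 10 months they were at -0.28 ± 0.22, -0.55 ± 0.22, 0.10 ± 0.18 and -0.12 ± 0.11 (SE). At 6 months 17 of 313 precursors were called (5.43%), none of these 4 among them. At 10 months 0 of 314 were called by edgeR (0%), with 17 at an unadjusted p under 0.05 (5.41%), and 20 (6.37%) without a library labelled Q20 F1 whose sex markers go against its label. Without that library *Mir451a* was at -0.54 ± 0.23 and *Mir144* at -0.24 ± 0.22 (SE). In neither later fit was *Mir144* or *Mir451a* thus higher in Q140. The 6-month fit took index type (LB or V in the library name) in place of lane. At that age every Q140 male had type V and every Q20 male type LB. Genotype and index type thus cannot be told apart among those males, which limits the 6-month values.

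The change with age was tested as an interaction over the livers of 2 and 10 months. The difference at 10 months minus that at 2 months was -1.17 ± 0.31 for *Mir451a* (SE, adjusted p = 0.0958, edgeR), -1.04 ± 0.32 for *Mir144* (adjusted p = 0.135) and -1.005 ± 0.31 for *Mir486* (adjusted p = 0.135). None passed the threshold. *Mir451a* and *Mir144* were chosen for being higher in the same 2-month livers that enter this fit. Their values are therefore no separate evidence of a change with age. The 10-month library labelled Q20 F1 was kept in this fit. Of 300 precursors tested at both ages, 0 passed (0%) and 41 had an unadjusted p under 0.05 (13.7%), and a likelihood ratio test in DESeq2 called 2.

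No precursor differed between sexes in its response to Q140 by edgeR (0 of 316, 0%), with 26 at an unadjusted p under 0.05 (8.23%), and DESeq2 called 1. The smallest p was that of *Mir434*, a *Dlk1-Dio3* precursor (-1.35 ± 0.31 in males minus females, SE, adjusted p = 0.109), named after its value was seen. *Mir379* and *Mir541* of that cluster, named likewise, were at -1.44 ± 0.44 and -1.03 ± 0.36 (SE, adjusted p = 0.301 and 0.480, edgeR). Apart from *Mir376c* and *Mir127* above, values by sex of the other cluster members are not given.

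The other long alleles at 2 months were compared with the same 16 controls, so these values are not independent of those of Q140. Calls numbered 33 in Q175 (10.4%), 1 in Q92 (0.316%) and 0 in Q80 and Q111 (0%) by edgeR. At an unadjusted p under 0.05 they numbered 87 in Q175 (27.5%), 40 in Q80 (12.7%), 26 in Q92 (8.23%) and 8 in Q111 (2.53%). In Q175, a line that arose from Q140 by further expansion, *Mir451a* was at 0.42 ± 0.12 (SE, adjusted p = 0.0231, edgeR), *Mir144* at 0.33 ± 0.13 (adjusted p = 0.0944), *Mir30b* at -0.26 ± 0.07 (adjusted p = 0.0219) and *Mir182* at -0.30 ± 0.14 (adjusted p = 0.157). In Q80, *Mir451a* was at -0.16 ± 0.14, *Mir144* at -0.30 ± 0.13, *Mir30b* at -0.19 ± 0.09 and *Mir182* at -0.48 ± 0.12 (SE). Without a library labelled Q80 M1, which goes against its labelled sex, Q80 had 35 at an unadjusted p under 0.05 (11.1%), with *Mir144* at -0.28 ± 0.15 and *Mir182* at -0.45 ± 0.11 (SE). Values in Q92 and Q111 lay between 0.15 and 0.28 for *Mir144* and *Mir451a*, and between -0.21 and 0.06 for *Mir182* and *Mir30b*.

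**Figure D4:**
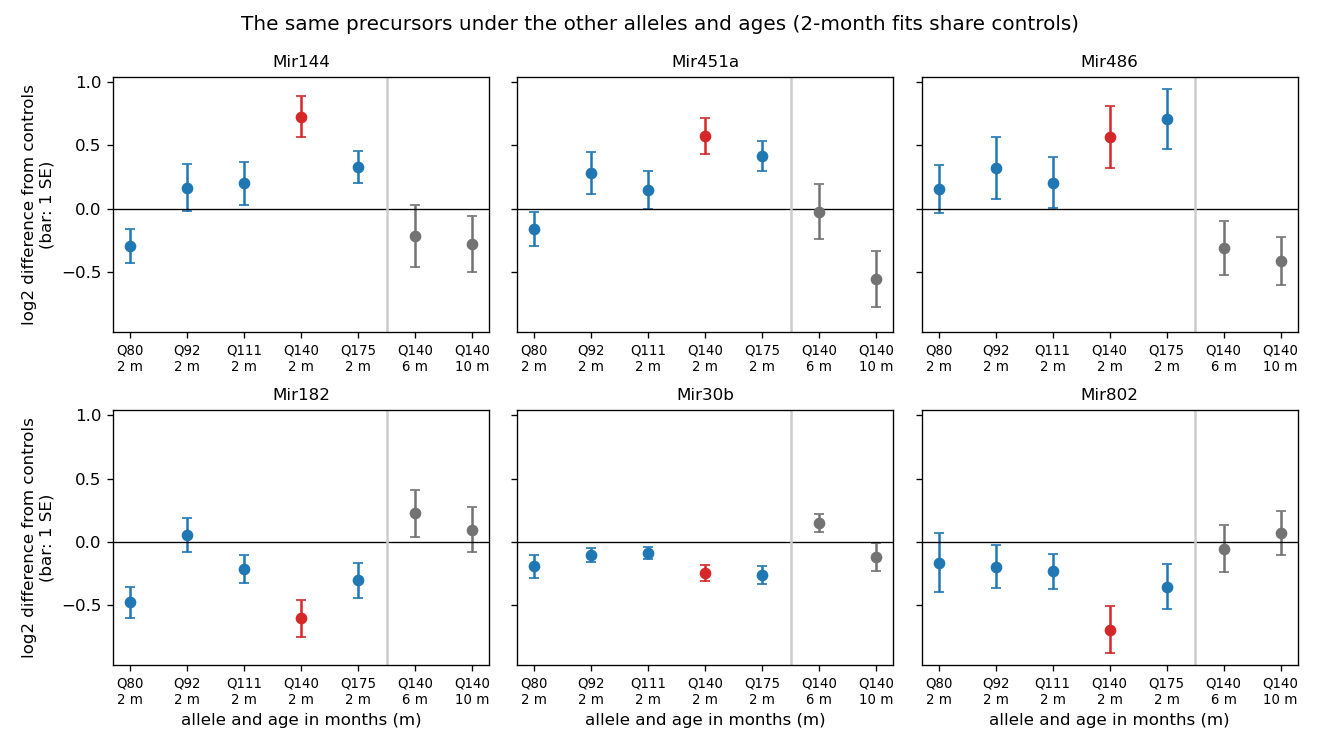
Log2 difference from controls (y axes, bars of 1 SE) of 6 precursors for each allele at 2 months and for Q140 at 6 and 10 months (x axis), with Q140 at 2 months in red. The 2-month fits share their controls, and *Mir144*, *Mir451a* and *Mir486* of Q140 lie above 0 at 2 months and below 0 at 6 and 10 months.

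The number of precursors called was unstable. Leaving out 1 library at a time gave from 0 to 18 calls (18 without Q140 M2), with 0 in 14 of 24 cases, and with every library in, all 4 adjusted p-values stood at 0.0459. Over all settings and libraries left out, *Mir144* lay between 0.34 and 1.36, *Mir451a* between 0.44 and 1.14 (at most 0.95 and 0.67 without the fit against WT with the lane term), *Mir182* between -0.67 and -0.17 and *Mir30b* between -0.30 and -0.05, with no change of sign.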

How the data were processed

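Small RNA from 24 livers (total RNA, miRNeasy kit) had been sequenced as 36-base single-end reads. Per the study's methods and the submitters' processing notes, the authors used CASAVA 1.8.2, aligned clipped reads to mm10 with STAR and counted with HTSeq. The deposited values are estimated counts per Ensembl precursor (1626 transcripts), often fractional, and a table of FPKM from the same counts. How HTSeq gave fractions is not clear from the sources used here. Near-identical precursors can share reads.

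Estimated counts were rounded and tested with edgeR 4.0.16 (R 4.3.3): TMM factors, quasi-likelihood F test, sex as labelled and lane (L number in the library name) as covariates, Benjamini-Hochberg adjustment over the 316 precursors with at least 10 counts in at least 7 libraries of 2-month livers. The SE is the log2 difference divided by the square root of F. Later ages were fitted alike, with index type for lane at 6 months. Alternatives used DESeq2 1.42.0 and limma 3.58.1 on log2(FPKM + 1) and log2(FPKM + 10). A permutation test of the called precursors within lanes is not given, since they were chosen on the same livers. Fits were tested on simulated data. Precursor coordinates are those of GENCODE (1228 of 1626 matched), 1-based. The livers came from separate mice.

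Named precursors were those called, the 10 higher and 10 lower with the smallest p, the 6 with the highest CPM, for each list the smallest p and highest CPM, and neighbours within 10 kb. The comparison, its members and the lists were chosen with earlier results of these data known. Reads carried no molecular identifiers, so true errors can exceed those of counting.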

Additional observations from a re-analysis of the deposited data

Results flagged for a closer look

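Among 123 groups of 8 livers examined (each of the 40 named precursors and the total count, in Q140, Q20 and WT), 9 held a liver that stood apart by Dixon's test, in which chance marks about 5% of groups. That number is not far from what chance gives. The groups are also not independent, since *Gm23935*, *Gm24245* and *Gm24270* have identical counts. The livers are thus described only. A WT male, replicate M2, had *Mir144* at 452.7 CPM, with the next WT liver at 270.6 CPM. The same liver had *Mir451a* at 1655 CPM, with the next at 1128 CPM, so both members of the pair were high in 1 control liver. Its *Mir486* was at 2947 CPM, below the WT median of 3660 CPM. A Q20 female, replicate F1, had *Mir128-1* at 71.9 CPM, with the next Q20 liver at 54.6 CPM, and the muscle microRNA *Mir133a-1* at 55.1 CPM, with the next at 10.8 CPM.

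Stromal and muscle microRNAs stood apart in single livers of Q140 and of WT. A Q140 female, replicate F2, in lane 1 where there is no control, had the smooth muscle microRNA *Mir143* at 45161 CPM, with the next Q140 liver at 22034 CPM, and *Mir31* at 787 CPM, with the next at 558 CPM. A WT female, replicate F3, had *Mir143* at 40255 CPM (next 22143 CPM), *Mir145a* at 711 CPM (next 546 CPM) and *Mir133a-1* at 65.9 CPM (next 18.6 CPM).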

How the results depend on the processing

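The 4 calls of Q140 against controls were sensitive to the processing. In edgeR the count was 0 with RLE factors (57 at an unadjusted p under 0.05), 2 with total count alone, 13 without the low-count filter (11 higher, 1068 tested), 1 with at least 50 counts, 7 without a lane term (1 of the 4 kept), 0 in lanes with both groups alone (64 unadjusted), 7 within lane 5 (0 of the 4 kept), 0 with all genotypes in 1 fit (45 unadjusted), 0 against Q20 alone (41 unadjusted), 0 against WT alone without a lane term (44 unadjusted) and 0 with identical copies summed (58 unadjusted). DESeq2 gave 17 (11 higher, 64.7%, against 50% in edgeR), all 4 included. limma gave 2 with either pseudocount and 0 without the low-value filter (109 unadjusted). With total count alone and with either pseudocount, the calls were 2 higher and 0 lower, so *Mir182* and *Mir30b* were not kept. Added after the data were seen, the fit of all genotypes without a Q80 library that goes against its labelled sex gave 0 (48 unadjusted), and WT alone with the lane term, resting on 3 livers of lane 3, gave 0 (26 unadjusted). Robust dispersion gave 4.

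Calls over libraries left out in turn ranged from 0 to 18. The count was 18 without Q140 M2, 11 without Q20 M3, 10 without Q140 M3, 9 without Q20 F1, 8 without Q140 F1 or M1, 6 without Q140 F2, 2 without WT M2 or F4 and 1 without Q140 F3, and 0 without any of the others. DESeq2 called 1 precursor for the interaction with sex and 2 for that with age, where edgeR called 0. The cause of these shifts was not tested. Over the 4 called precursors, 45 alternative values passed the threshold and 127 did not, all of the same sign. Of 19 other settings, *Mir144* and *Mir451a* each passed in 7, *Mir182* in 3 and *Mir30b* in 2. Of 24 libraries left out, *Mir144* passed in 9 cases, *Mir451a* and *Mir182* each in 7 and *Mir30b* in 3.

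Replicate numbers are shared between groups but do not pair the mice: the correlation of deviations over 24 same-number pairs ranged from -0.391 to 0.443, with 4 over 0.1. With the replicate number as a block the count was 0 (60 unadjusted).

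Depth limits scarce precursors such as *Mir96* and *Mir1961*, and lane 1 and lane 4 give no within-lane difference.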

Other observations

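The 69 precursors tested without a Mir symbol (Gm symbols or transcript identifiers alone) were mostly higher in Q140, 49 against 20 lower, with a median log2 difference of 0.42. Of these, 13 were higher and 1 lower at an unadjusted p under 0.05. The 247 precursors with a Mir symbol were 95 higher and 152 lower, with a median of -0.05, and 17 were higher and 34 lower at that threshold. This grouping was made after the values were seen and was not tested. Several of these entries share identical counts, so they are fewer measurements than precursors.

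Some precursors passed the adjusted threshold of edgeR within lane 5 alone. *Mir331* was at -0.70 ± 0.11 (SE, adjusted p = 0.0160) and *Mir1247* at -0.73 ± 0.14 (SE, adjusted p = 0.0385), in 5 Q140 against 3 Q20 livers. The 4 unmatched transcripts called there had the same value, 1.60 ± 0.23, from at most 127 counts in a library.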
